A study of Mus musculus with 4 samples.

Results

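The genes described here are 35 components of the unfolded protein response (UPR) and of the ATF4 pathway, read in bulk RNA-seq of splenic CD4+ T cells. They were taken by symbol from a fixed list, and all 35 were found among the 55367 gene symbols counted. They fall into 4 roles. The chaperones and foldases of the endoplasmic reticulum (ER) number 15, the genes of ER-associated degradation 4, the stress sensors together with *Xbp1* 4, and the ATF4 arm 12. The chaperones and the degradation genes together are called the ER chaperone arm (19 genes) and were set against the ATF4 arm. The genotypes compared were WT and *Satb1* conditional knockout (cKO), both C57BL/6, with 2 libraries each. The study made the knockout with *Satb1* F/F and *Thpok-cre*, a driver active in every CD4+ T cell once that lineage is chosen, so conventional and regulatory T cells both lose the gene and are mixed in these libraries. The study's methods describe young adult mice of both sexes as a rule, the labels give neither age nor sex for a library, and no treatment was applied. The study calls the libraries of a genotype biological replicates and plots independent mice unless it says otherwise, whereas the labels do not tie a library to a mouse.

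Proteins that enter the ER are folded there by chaperones such as BiP, the product of *Hspa5*. When unfolded protein accumulates, 3 membrane sensors respond. IRE1α (*Ern1*) splices the mRNA of the factor XBP1, ATF6 is cut to release a transcription factor, and PERK (*Eif2ak3*) phosphorylates the initiation factor eIF2α. The first 2 routes raise chaperones and degradation genes. PERK and other kinases that sense amino acid shortage or infection converge on eIF2α, which lowers general translation and favours translation of ATF4, a factor that drives genes of amino acid supply and of stress-induced death. This second route is the integrated stress response. In lymphocytes the chaperone route is best known from the plasma cell, which secretes antibody, whereas an activated T cell draws on the ATF4 route for serine and one-carbon metabolism. Splicing of *Xbp1*, cleavage of ATF6 and translation of *Atf4* do not show in counts per gene.

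The promoters of the arms differ in the sequence elements through which these factors are known to act, and a few are printed to show that difference. A promoter window of 300 bases around the gene start was found in RefSeq GRCm38.p6 for 32 of the 35 genes, and none was found for *Manf*, *Hyou1* and *Atf6*. The ER stress element (ERSE), bound by the factor NF-Y at CCAAT and by ATF6 or XBP1 at CCACG, was searched on both strands as CCAAT and CCACG with any 9 bases between them. It was present in 8 of 17 windows of the ER chaperone arm, in 0 of 12 of the ATF4 arm and in 0.119% of 32851 windows of all genes. In the lines below, capitals mark the fixed letters of the elements, positions count from the gene start at 0, and each stretch reads 5′ to 3′ on the strand of its gene. *Hspa5* (chr2:34772015-34772053, plus strand, bases -75 to -37) and *Hsp90b1* (chr10:86705523-86705666, minus strand, bases -222 to -79) are shown as the chaperones with the highest fold changes, and *Canx* (chr11:50325790-50325828, minus strand, bases -155 to -117) because it holds the same element and lay on the other side of WT.
Hspa5: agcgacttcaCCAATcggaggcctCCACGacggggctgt
Hsp90b1: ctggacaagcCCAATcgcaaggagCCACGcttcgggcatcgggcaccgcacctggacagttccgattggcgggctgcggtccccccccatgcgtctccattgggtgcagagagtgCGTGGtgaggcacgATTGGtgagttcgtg
Canx: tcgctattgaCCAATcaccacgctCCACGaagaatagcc

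The composite element of ATF4 with a C/EBP protein was searched as TGATGNAA on both strands. It was present in 4 of 12 windows of the ATF4 arm (*Atf3*, *Trib3*, *Chac1* and *Asns*), in 1 of 17 of the ER chaperone arm (*Herpud1*) and in 3.97% of all windows. *Herpud1* is shown because it holds this element and also the shorter ERSE-II, searched on both strands as ATTGG and CCACG with any 1 base between them and found in 0.0365% of all windows. *Atf3*, *Chac1* and *Asns* are shown because they hold the element and were the members with too few counts to be tested. The stretches are *Herpud1* at chr8:94386307-94386397 (plus strand, bases -122 to -32), *Atf3* at chr1:191183426-191183453 (minus strand, bases -120 to -93), *Chac1* at chr2:119351039-119351066 (plus strand, bases -203 to -176) and *Asns* at chr6:7693215-7693242 (minus strand, bases -33 to -6).
Herpud1: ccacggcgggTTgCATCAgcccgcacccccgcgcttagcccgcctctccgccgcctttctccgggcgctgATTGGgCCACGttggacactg
Atf3: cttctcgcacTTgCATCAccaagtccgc
Chac1: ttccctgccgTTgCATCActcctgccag
Asns: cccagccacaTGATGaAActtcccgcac

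The bare CCAAT box was in 17 of 17 windows of the ER chaperone arm, in 8 of 12 of the ATF4 arm, in 1 of 3 of the sensors and in 37.4% of all windows. The ERSE contains it, so these counts overlap. The UPR element core, TGACGTGG, was in none of the members' windows and in 0.676% of all windows. These are matches of letters and do not show that a factor was bound.

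**Figure D1:**
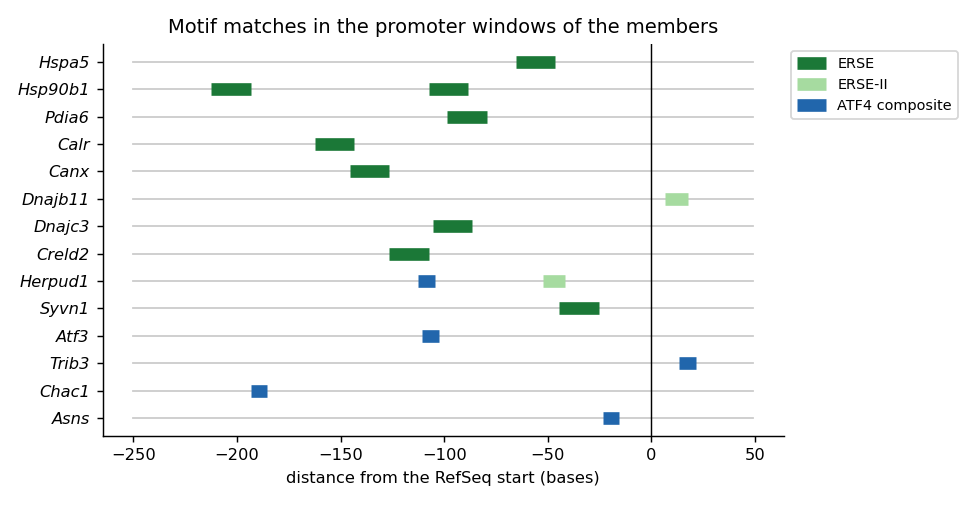
Positions of the ERSE, the ERSE-II and the ATF4 composite element in the promoter windows of the 14 members that held one. The x axis is the distance from the RefSeq gene start in bases, each grey line is a window of 300 bases, and the ERSE matches sit between -212 and -26.

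Before the members, the targeted gene and the libraries were examined. *Satb1* gave 5677 and 4390 counts in WT against 4958 and 3986 in cKO (log2 fold change -0.05, SE 0.12, edgeR quasi-likelihood adjusted p = 0.877), and its sign turned without WT 2 (0.042) or cKO 2 (0.032). The gene count thus did not separate the genotypes, which exons the deletion removes was not analysed here, and directions below follow the labels. Total gene counts ran from 4495902 to 6555699. *Xist* had 5447 and 4235 counts in WT against 9 and 6 in cKO, and *Ddx3y* 0 in both against 525 and 597. The WT libraries thus had a female pattern and the cKO libraries a male one, so sex and genotype cannot be told apart. The CD4+ T cell markers were present throughout, with a summed expression of 6433 to 6943 CPM, which are counts per 1000000 after TMM scaling of the library sizes. Of these 10 markers 1 passed the edgeR test, *Thy1*, which fell. It had 1184 and 1158 CPM in WT against 752 and 769 CPM in cKO (log2 fold change -0.62, adjusted p = 0.0169). Of the markers of other cells, 5 of 12 tested myeloid genes rose, 4 of 6 CD8+ T or NK cell genes fell and 0 of 6 erythroid genes passed. The erythroid genes summed to 10.1 CPM in cKO 1 against 101 and 314 in WT and 222 in cKO 2, so cKO 1 stood apart from the rest, and the part of this in member results that turn on cKO 1 was not tested. The libraries are bulk, so fewer cells of a type and less RNA per cell cannot be told apart.

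Of the 35 members, 32 passed the filter on low counts and were tested, and none differed between genotypes at an adjusted p under 0.05. Of all 12403 genes tested, 533 did, or 4.30%. Higher in cKO were 2.35% of all genes and lower 1.95%. At an unadjusted p under 0.05 there were 8 members, 5 higher and 3 lower, which is 25.0% of those tested against 19.1% of all genes (9.72% higher and 9.39% lower). DESeq2 called none of them and 3.43% of all genes, with 6 members and 10.9% of all genes at an unadjusted p under 0.05. The fold changes were small and the intervals mostly narrow. For 22 of the 32, the 95% interval of the fold lay wholly inside a 1.5-fold change in either direction, as it did for 5888 of all 12403 genes. For 31 its upper bound was under a 2-fold rise, as for 10808 of all genes. The median SE was 0.126 for the members and 0.165 for all genes. The lowest bound among the members was 0.511-fold, for *Trib3*, and the highest 2.08-fold, for *Ern1*. The count of 0 depended on the setting. With all 4 libraries it became 2 without the low-count filter and in the likelihood ratio test (*Xbp1* and *Ern1*) and 3 with the replicate block (*Shmt2* as well), where 5.72%, 8.84% and 9.39% of all genes were called. Without cKO 1 it became 6 (*Hspa5*, *Hsp90b1*, *Pdia3*, *Xbp1*, *Asns* and *Shmt2*) and without cKO 2 it became 4 (*Canx*, *Edem1*, *Xbp1* and *Ern1*), and only *Xbp1* was common to both. Of all genes tested in those fits, 11.7% were called without cKO 1 and 13.8% without cKO 2. The members' count was 0 without WT 1, where 3.62% of all genes were called, and without WT 2, where 1.39% were. In these fits 1 genotype has a single library, which is assumed to vary like the other genotype.

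**Figure D2:**
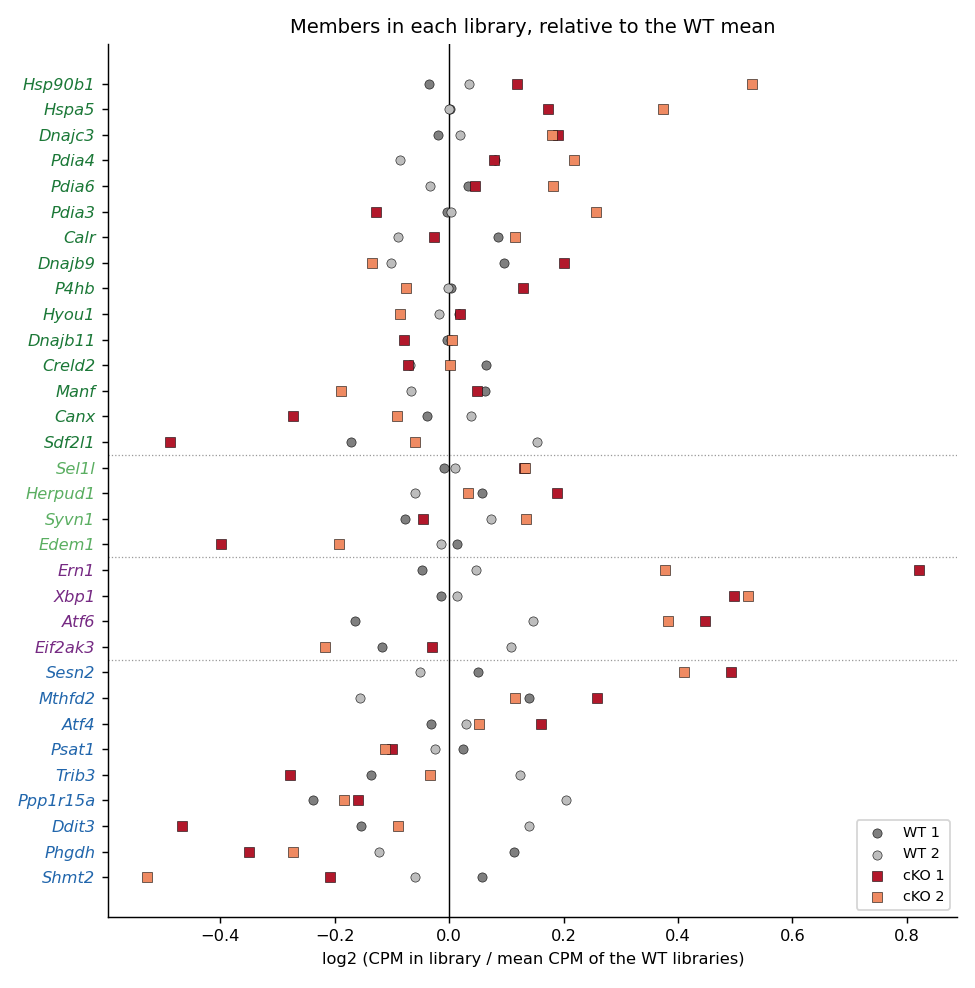
Expression of the 32 tested members in each library as the log2 ratio to the mean CPM of the WT libraries (x axis), one gene per line, ordered by role from chaperones (dark green) through ER-associated degradation (light green) and sensors with *Xbp1* (purple) to the ATF4 arm (blue). Most chaperones scatter around 0, whereas both cKO libraries lie to the right for *Ern1*, *Xbp1*, *Atf6* and *Sesn2* and to the left for *Edem1*, *Phgdh* and *Shmt2*.

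The level of each gene per length of its exons, in TPM (transcripts per 1000000), set the scale of the pathway in these cells. The chaperones were the most abundant role, with a median of 168 TPM over 15 genes. *Calr*, a calcium-binding lectin chaperone, had the highest level of the 35 at 647 TPM, followed by *Pdia3*, a thiol oxidoreductase that works with it, at 589, and by *Atf4* at 337. *P4hb* (318) and *Hspa5* (314) followed. The degradation genes had a median of 88.4 TPM, the ATF4 arm 47.7 and the sensors with *Xbp1* 18.6. *Ern1* had 10.1 TPM and *Atf6* 10.4, at ranks 31 and 30. Below them lay only *Trib3* (5.78), *Asns* (3.64), *Atf3* (0.381) and *Chac1*, at 0. *Atf4* mRNA was thus among the highest of the members while *Asns*, *Atf3* and *Chac1* of its own arm were at the foot of the range. These levels are means over all 4 libraries and depend on the exon models of the annotation.

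**Figure D3:**
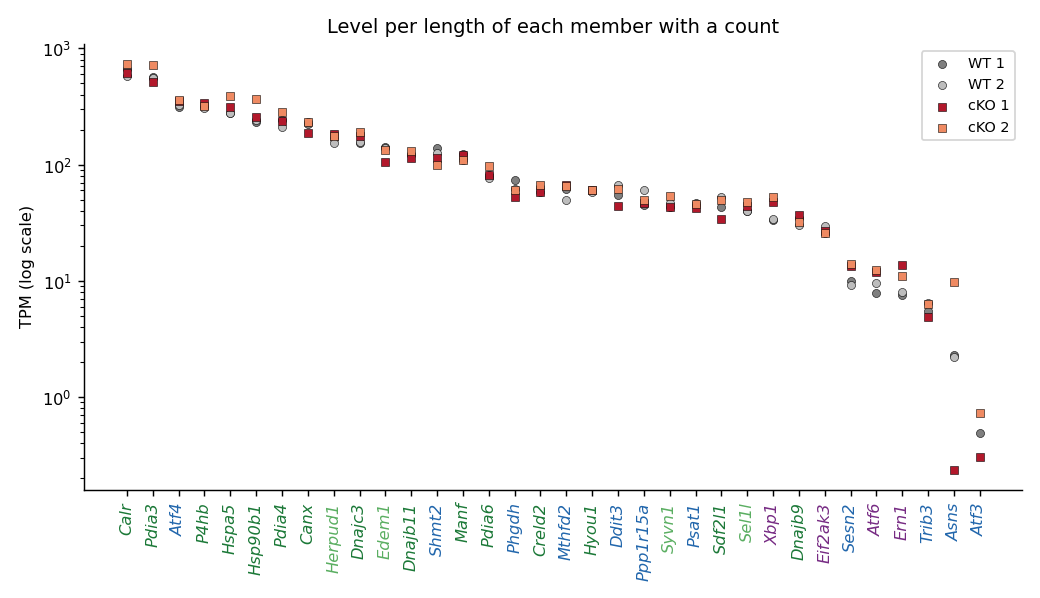
Level per length of the 34 members with a count, in TPM on a log scale (y axis), ordered from the highest mean to the lowest, with a point for each library and gene names coloured by role as above. The chaperones fill most of the upper ranks from *Calr* (647 TPM) down, and a library at 0 has no point.

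Among the chaperones and foldases, 0 of 15 passed the test, 9 fold changes were above 0 and 6 below, and the median log2 fold change was 0.04, beside -0.0015 for all genes tested. The highest 2 were BiP and its partner GRP94. *Hspa5* (chromosome 2, 34771970 to 34777547, GRCm38) had 343 and 342 CPM in WT and 386 and 444 CPM in cKO. The mean was 343 ± 0.291 CPM (SD, n = 2) in WT and 415 ± 41.0 in cKO, and an SD over 2 libraries measures their spread poorly. Its log2 fold change was 0.28 (SE 0.11, edgeR adjusted p = 0.201), an interval of 1.02- to 1.43-fold. *Hsp90b1*, which encodes GRP94 (chromosome 10, 86690209 to 86705509), had 272 and 285 CPM in WT and 303 and 402 CPM in cKO. The fold change on the log2 scale was 0.34 (SE 0.14, adjusted p = 0.223). For both, each cKO library lay above each WT library and cKO 2 stood well above cKO 1. Without cKO 2 the log2 fold change of *Hspa5* was 0.17 and that of *Hsp90b1* 0.12, and without cKO 1 they were 0.37 and 0.53 and passed the threshold (adjusted p = 0.00375 and 0.000183). Of the exon bases of *Hsp90b1*, 15.7% overlap other annotated genes.

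The other chaperones split around 0. *Dnajc3*, a co-chaperone of BiP that also inhibits PERK, had 228 and 235 CPM in WT and 264 and 262 CPM in cKO, with a log2 fold change of 0.19 and an adjusted p of 0.323. The disulphide isomerases *Pdia3*, *Pdia4*, *Pdia6* and *P4hb* gave log2 fold changes of 0.08, 0.15, 0.11 and 0.03. In *Pdia3* the cKO libraries, at 470 and 614 CPM, lay on either side of both WT libraries, at 512 and 515. *Calr* had 556 and 492 CPM in WT and 515 and 568 in cKO, so the genotypes overlapped, and its log2 fold change of 0.04 (SE 0.11, adjusted p = 0.874) turned negative without WT 2 (-0.04) or cKO 2 (-0.03). *Canx*, the membrane-bound relative of *Calr*, went the other way, from 305 and 322 CPM to 259 and 294, with a log2 fold change of -0.18 and an adjusted p of 0.399. *Dnajb9* (0.04), *Dnajb11* (-0.04), *Creld2* (-0.04), *Hyou1* (-0.03) and *Manf* (-0.07), which are classical targets of ATF6 or XBP1, all had adjusted p-values of at least 0.821. *Sdf2l1*, a small BiP cofactor and the least abundant chaperone in CPM, gave -0.25 with an SE of 0.23 and an interval of 0.581- to 1.22-fold, the widest of the 15. Libraries of the genotypes did not overlap for 5 of the 15 chaperones (4 higher, 1 lower in cKO), or for 50.3% of all genes.

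Genes with and without an ERSE lay on both sides of 0. The 8 genes of the arm with the element ranged from -0.18 (*Canx*) to 0.34 (*Hsp90b1*) around a median log2 fold change of 0.08, with 6 above 0. The 9 with a window but no ERSE ranged from -0.29 (*Edem1*) to 0.15 (*Pdia4*) around 0.04, also with 6 above 0. Of these 9, *Herpud1* and *Dnajb11* hold the ERSE-II, so the group is not free of ER stress elements. These are descriptions over members and carry no test.

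The degradation genes gave 0 of 4 calls. *Edem1*, a lectin that hands misfolded glycoproteins over for disposal (chromosome 6, 108828641 to 108859356), had 267 and 262 CPM in WT against 201 and 232 CPM in cKO. This gave a log2 fold change of -0.29 (SE 0.10, edgeR adjusted p = 0.172), and both cKO libraries lay below both WT libraries. The value was -0.19 without cKO 1 and -0.40 without cKO 2, where it passed the threshold (adjusted p = 0.00131). *Sel1l*, an adaptor of the HRD1 ubiquitin ligase, had 99.7 and 101 CPM in WT against 110 in each cKO library (log2 fold change 0.13, adjusted p = 0.528). *Syvn1*, the ligase HRD1 itself, gave 0.05 (adjusted p = 0.872). *Herpud1*, which links the ligase to its partners and holds both kinds of element printed above, had 113 and 104 CPM in WT and 124 and 111 CPM in cKO. The genotypes overlapped, with a log2 fold change of 0.11 (adjusted p = 0.635) that was 0.028 without cKO 1, 0.053 without WT 2, 0.18 without WT 1 and 0.19 without cKO 2.

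The sensors and *Xbp1* stood highest of the 4 roles, with a median log2 fold change of 0.47 over 4 genes, though 0 of 4 passed the test. *Xbp1* (chromosome 11, 5520659 to 5525893) had 31.7 and 32.3 CPM in WT and 45.2 and 45.9 CPM in cKO. The means were 32.0 ± 0.426 CPM (SD, n = 2) and 45.5 ± 0.532 CPM (SD, n = 2). The libraries of each genotype were close together and far from the other pair. An SD over 2 libraries with 144 to 237 counts each measures the spread between replicates poorly, so this closeness is no evidence of tight replication. For this gene the log2 fold change was 0.51 (SE 0.13), with an interval of 1.16- to 1.75-fold. The edgeR adjusted p of 0.0660 was the lowest of the 32 members. With libraries this close, leaving 1 out could move the fold change little, and it ran from 0.50 to 0.52 over all alternatives. In the alternatives with all 4 libraries the adjusted p ran from 0.0225 (likelihood ratio test) to 0.289 (DESeq2). *Xbp1* passed the threshold without the low-count filter, in the likelihood ratio test, with the replicate block and without either cKO library.

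*Ern1* (chromosome 11, 106394650 to 106487852) had 18.05 and 19.3 CPM in WT and 33.0 and 24.2 CPM in cKO, so cKO 1 stood highest. Its log2 fold change of 0.62 (SE 0.19, adjusted p = 0.113) was the largest of the 32 tested members, and it was 0.38 without cKO 1 and 0.83 without cKO 2, where it passed the threshold (adjusted p = 0.000874). With all 4 libraries *Ern1* also passed without the low-count filter (0.0222), in the likelihood ratio test (0.0447) and with the replicate block (0.0426). *Atf6* (chromosome 1, 170704674 to 170867771) had 21.0 and 25.99 CPM in WT and 32.0 and 30.6 CPM in cKO, with a log2 fold change of 0.43 (SE 0.16, adjusted p = 0.194) that was 0.28 without WT 1 and 0.58 without WT 2. *Eif2ak3*, the gene of PERK, differed from these in that its genotypes overlapped, with 44.7 and 52.2 CPM in WT and 47.4 and 41.7 CPM in cKO and a log2 fold change of -0.11 (SE 0.14, adjusted p = 0.719). That value was -0.22 without WT 1, -0.21 without cKO 1, -0.019 without cKO 2 and -0.0063 without WT 2. Each of *Xbp1*, *Ern1* and *Atf6* was thus higher in both cKO libraries than in both WT libraries, a pattern shown by 24.8% of all genes.

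Plasma cells and B cells are rich in *Xbp1*, so their markers were read beside it. The 16 plasma cell markers found summed to 774 and 641 CPM in WT and 846 and 622 CPM in cKO, and most of that was *Ighm*, at 583 and 445 CPM in WT and 582 and 448 CPM in cKO. Among the immunoglobulin genes *Igkc* had 6.27 and 25.1 CPM in WT, 64.8 in cKO 1 and 19.98 in cKO 2. *Iglc1*, *Iglc2*, *Ighg2b*, *Igha* and *Jchain* were likewise highest in cKO 1, with 34, 22, 26, 8 and 38 counts there and at most 15 in any other library. Of the factors and receptors in the list, *Pou2af1* fell (log2 fold change -1.14, edgeR adjusted p = 0.00900). The plasma cell factor *Irf4*, which activated T cells also express, had 41.3 and 33.8 CPM in WT against 83.5 and 53.4 CPM in cKO (0.86, adjusted p = 0.0564). *Prdm1* (0.27), *Slamf7* (-1.13) and *Tnfrsf13b* (-0.30) did not pass. Of the other defining markers, *Tnfrsf17* had no count in any library, *Sdc1* had 2 to 5 counts, and *Mzb1* had 3 counts in cKO 1 and none elsewhere. All 7 tested B cell markers had a fold change above 0, and 2 of them rose in the edgeR test, *Pax5* and *Cd74*. Summed over 13 genes, the B cell markers gave 46.2 and 59.2 CPM in WT, 246 in cKO 1 and 94.4 in cKO 2. *Xbp1* was at 45.2 CPM in cKO 1 and 45.9 in cKO 2, while *Ern1* was higher in cKO 1, as the B cell markers and these immunoglobulin genes other than *Ighm* were. Their part in the fold changes of *Ern1* and *Xbp1* was not tested.

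**Figure D4:**
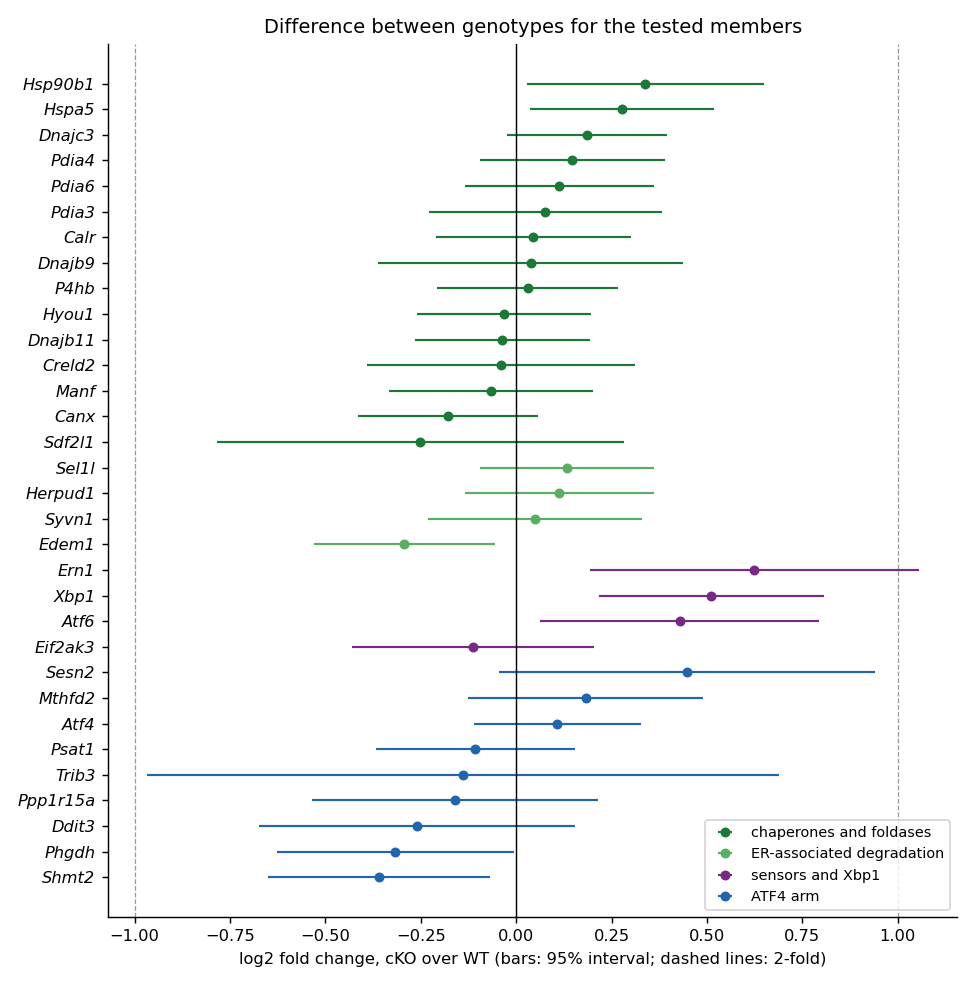
Log2 fold change of cKO over WT (x axis) for the 32 tested members, with 95% intervals from the edgeR quasi-likelihood fit and dashed lines at a 2-fold change. The interval of *Ern1* is the only one to cross the 2-fold rise, and the intervals of *Xbp1*, *Ern1*, *Atf6*, *Hspa5* and *Hsp90b1* lie wholly above 0 and those of *Edem1*, *Phgdh* and *Shmt2* wholly below it.

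In the ATF4 arm, 9 of 12 genes were tested and none passed, with 3 fold changes above 0 and 6 below and a median log2 fold change of -0.14. *Atf4* itself (chromosome 15, 80255184 to 80257541) had 214 and 223 CPM in WT and 244 and 227 CPM in cKO. Its log2 fold change was 0.11 (SE 0.10, edgeR adjusted p = 0.603), and its interval, 0.926- to 1.25-fold, left out a 1.5-fold change in either direction. With single libraries left out the value ran from 0.05 (without cKO 1) to 0.16 (without cKO 2). *Ddit3*, the gene of the pro-apoptotic factor CHOP, had 27.2 and 33.4 CPM in WT and 21.9 and 28.5 CPM in cKO, with overlapping genotypes and a log2 fold change of -0.26 (SE 0.18, adjusted p = 0.490) that ran from -0.45 without cKO 2 through -0.40 without WT 1 and -0.12 without WT 2 to -0.08 without cKO 1. *Trib3*, a pseudokinase that CHOP and ATF4 induce, had 22 and 18 counts in WT and 16 and 17 in cKO (log2 fold change -0.14, SE 0.36). *Ppp1r15a*, the GADD34 subunit that reverses the phosphorylation of eIF2α, had 38.1 and 51.8 CPM in WT and 40.2 and 39.5 CPM in cKO. Its log2 fold change of -0.16 (adjusted p = 0.658) turned to 0.062 without WT 2.

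The 3 untested members were those at the bottom of the range. *Chac1*, which degrades glutathione, had no count in any library, where 3 counts, the limit that a count of 0 allows, would be 0.459 to 0.672 CPM. *Atf3* had 2 and 0 counts in WT and 1 and 2 in cKO, all at or under that limit, so no fold is given. *Asns*, asparagine synthetase and a standard reporter of ATF4 activity (chromosome 6, 7675169 to 7693254), had 12 and 8 counts in WT, 1 in cKO 1 and 34 in cKO 2. The cKO libraries lay on either side of both WT libraries, at 0.191 and 7.23 CPM against 1.84 and 1.79. Without the low-count filter *Asns* had a log2 fold change of 0.97 and an adjusted p of 0.301.

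The serine and one-carbon enzymes of the arm had values on both sides of 0. *Shmt2*, which makes glycine and one-carbon units from serine in mitochondria (chromosome 10, 127517123 to 127522444), had 124 and 114 CPM in WT and 103 and 82.7 CPM in cKO. This was the lowest log2 fold change of the 32, -0.36 (SE 0.13, edgeR adjusted p = 0.172). *Phgdh*, the entry enzyme of serine synthesis, had 52.8 and 44.8 CPM in WT and 38.3 and 40.4 CPM in cKO (log2 fold change -0.32, SE 0.14, adjusted p = 0.253). *Psat1*, the next enzyme, had 58.0 and 56.0 CPM against 53.2 and 52.7 (-0.11, adjusted p = 0.673). *Mthfd2*, which follows *Shmt2*, lay above 0, at 0.18 (adjusted p = 0.521), with overlapping genotypes. *Sesn2*, a leucine sensor that restrains mTORC1, had 10.1 and 9.41 CPM in WT and 13.7 and 12.97 CPM in cKO, with the highest log2 fold change of the 9 tested genes of the arm at 0.45 (SE 0.22, adjusted p = 0.308). *Shmt2* passed the threshold with the replicate block (-0.36, adjusted p = 0.0468) and without cKO 1 (-0.53, adjusted p = 0.00505), and it was -0.21 without cKO 2 (adjusted p = 0.233).

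Genes of the cell cycle were read beside *Shmt2* and *Phgdh*. Of 18 proliferation genes, 6 fell in the edgeR test and 0 rose, with a median log2 fold change of -1.24. Their summed expression was 1125 and 1085 CPM in WT against 623 in cKO 1 and 761 in cKO 2, so this sum was lowest in cKO 1, as *Phgdh* was, whereas *Shmt2* was lowest in cKO 2. Of the list, *Mcm2* (107 CPM in cKO 1 and 92.0 in cKO 2), *Mcm3* (93.6 and 85.2) and *Mcm5* (82.7 and 81.6) were lower in cKO 2, as *Shmt2* was. The other genes of the list were lower in cKO 1. The part of the proliferation genes in the fold changes of the one-carbon enzymes was not tested. The 17 tested immediate early genes, which respond to cell handling as *Ppp1r15a* and *Atf3* also do, gave 1 call, with *Cd69* higher, and a median of 0.21.

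Set side by side, the ER chaperone arm had a median log2 fold change of 0.04 over 19 genes and the ATF4 arm -0.14 over 9, a difference of 0.18. The library medians relative to the WT mean were 0.05 in cKO 1 and 0.03 in cKO 2 for the ER chaperone arm, and -0.16 and -0.09 for the ATF4 arm. The gap was 0.013 without WT 2 and 0.08 without cKO 1. In those fits the low-count filter was run again, and *Asns* entered the ATF4 arm at least without cKO 1. The genes behind the median thus changed along with the libraries. No test of the difference was made, since genes of an arm are not replicates and an exact two-sided permutation test of 2 libraries against 2 can give no p below 1 in 3.

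The rest of the pathway was read from lists of further genes. No gene passed among 17 of the translocon and signal peptidase (median log2 fold change -0.13), 25 of other ER folding factors (0.03), 14 of other ER degradation genes (-0.01), 13 of other UPR regulators (-0.02) and 15 of eIF2, its exchange factor, kinases and phosphatases (-0.07). At an unadjusted p under 0.05 in the edgeR test these lists held 3, 1, 1, 1 and 1 genes. These are 17.6, 4, 7.14, 7.69 and 6.67% of those tested, against 19.1% of all genes. In the last list *Eif2s3x*, a subunit of eIF2 on chromosome X, had 37.8 and 43.0 CPM in WT against 28.6 and 25.7 CPM in cKO (log2 fold change -0.57, adjusted p = 0.0705). Its homologue *Eif2s3y*, on chromosome Y, had 1 and 0 counts in WT against 505 and 405 in cKO, the same sex pattern as given for the libraries above. For *Eif2s3x*, sex and genotype cannot be told apart here. The 20 tRNA synthetases, many of them ATF4 targets, had 0 calls, 4 genes at an unadjusted p under 0.05 and a median of -0.17, and 13 of them had both cKO libraries below both WT libraries, against 25.4% of all genes.

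Of 22 further ATF4 targets tested, 1 passed. *Pck2*, the mitochondrial phosphoenolpyruvate carboxykinase, rose from 9.48 and 8.74 CPM in WT to 29.9 and 26.8 CPM in cKO. Its log2 fold change was 1.63 (SE 0.19, edgeR adjusted p = 0.00282), and it kept its call under all alternatives, with adjusted p-values up to 0.0150. The list as a whole had a median of 0.01, with 8 of its 22 genes, or 36.4%, at an unadjusted p under 0.05, 4 higher and 4 lower. The amino acid transporter *Slc7a5* (log2 fold change -0.46, adjusted p = 0.0742) and *Mthfd1l* (-0.40, adjusted p = 0.0951), a mitochondrial folate enzyme, had values below 0 without passing, as did *Mthfd1* (-0.35) and the transporter *Slc7a1* (-0.27). Above 0 without passing were *Bbc3*, the gene of the death factor PUMA (1.58, adjusted p = 0.127), the death receptor *Tnfrsf10b* (0.84, adjusted p = 0.223) and the mTORC1 inhibitor *Ddit4* (0.59, adjusted p = 0.127). *Bbc3* had 12.1 and 20.8 CPM in WT, 74.1 in cKO 1 and 21.3 in cKO 2. *Slc7a11*, the cystine transporter, had 5 counts at most in a library.

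Chaperones outside the ER were read from a further list. Of 26 cytosolic and mitochondrial chaperones and cochaperones tested, 10 rose in the edgeR test and 0 fell, and the median log2 fold change was 0.42, beside 0.04 for the ER chaperones. All 10 were cytosolic. The mitochondrial *Hspd1* (log2 fold change 0.20), *Hspe1* (0.10) and *Hspa9* (-0.10) did not pass. Neither did the cytosolic *Cct2*, *Cct3*, *Cct5* and *Cct8* (-0.13 to 0.05). *Hsph1*, a nucleotide exchange factor for HSP70, rose from 98.8 and 86.0 CPM to 298 and 320 CPM, a log2 fold change of 1.74 (SE 0.11, adjusted p = 0.000106). *Dnaja1*, an HSP40, rose by 1.01 (adjusted p = 0.00148), *Dnajb1* by 0.95 (0.0233), *Stip1*, which joins HSP70 to HSP90, by 0.72 (0.00511) and the constitutive HSP70 *Hspa8* by 0.72 (0.0155). *Hspa1b*, a stress-inducible HSP70 with a near-identical copy in *Hspa1a* and so uncertain in count, had 5 and 7 counts in WT and 43 and 18 in cKO (2.43, adjusted p = 0.0440). Without WT 2, *Dnajb1*, *Stip1*, *Hspa8* and *Hspa1b* lost their calls (adjusted p = 0.155, 0.123, 0.320 and 0.104), and *Hspa1b* also did without WT 1 (0.115) or cKO 1 (0.0963). No test of the difference between the lists was made.

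**Figure D5:**
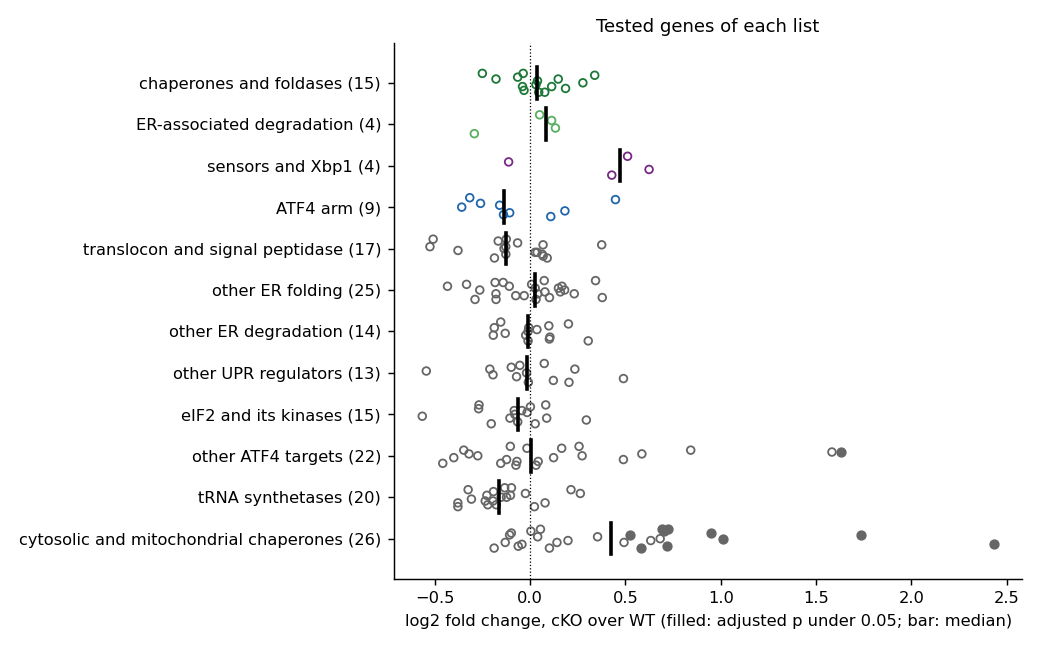
Log2 fold change of cKO over WT (x axis) for the tested members by role and the tested genes of the other pathway lists, with the number tested in parentheses, filled points for genes past an adjusted p of 0.05 and a black bar at each median. Marker, proliferation and immediate early lists are not drawn. Among the lists drawn, filled points are in the cytosolic and mitochondrial chaperones (10 genes, all cytosolic) and the other ATF4 targets (*Pck2*), and the members, in colour, have none.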

How the data were processed

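RNA was sequenced from sorted splenic CD4+ T cells in 4 libraries, 2 per genotype, as 50-base reads. The authors aligned reads to mm10 with HISAT2 2.1.0, counted them per gene with HTSeq (0.11.1 in the submitters' processing notes) and deposited raw counts per gene symbol; the annotation and strand setting are not given in the sources used here. HTSeq summary lines were left out: 59.4 to 64.5% of reads placed once fell outside features. Groups came from the labels alone. The study describes biological replicates, the labels do not tie libraries to mice, and p-values measure the spread between these libraries.

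Genes were filtered with filterByExpr, scaled by TMM and tested with the edgeR 4.0.16 quasi-likelihood F test (R 4.3.3, limma 3.58.1), two-sided, with Benjamini-Hochberg adjustment over 12403 genes and a threshold of 0.05. The SE is the absolute log2 fold change over the square root of F. Intervals have a level of 95%, cover counting error and library spread, and treat reads as independent although they carry no molecular identifiers. CPM use the TMM-scaled sum over tested genes. TPM use exon lengths from GENCODE M21 (GRCm38, the assembly of mm10). Promoters are from RefSeq GRCm38.p6. DESeq2 1.42.0 was an alternative. The fit was tested on simulated data. Figures used matplotlib 3.10.9.

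The members and lists were chosen with earlier results of these data known. Full values are given for 12 anchor genes, for the 2 largest absolute fold changes in each role and for any member called, with further members added after their values were seen. Non-members named by rule were the called genes of the pathway lists, at most 6 per list, and *Satb1*.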

Additional observations from a re-analysis of the deposited data

How the results depend on the processing

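Leaving out single libraries, the number of genes called (533) ran from 180 to 1790, of members (0) from 0 to 6, of ER chaperone arm genes (0) from 0 to 3 and of ATF4 arm genes (0) from 0 to 2. The median log2 fold change of the ER chaperone arm (0.04) ran from 0.0241 to 0.0807 in these fits, that of the ATF4 arm (-0.14) from -0.14 to 0.0115, the difference of the arms (0.18) from 0.0126 to 0.209, and *Satb1* (-0.05) from -0.129 to 0.0415, above 0 without WT 2 (0.0415) or cKO 2 (0.0324). The low-count filter was run again in each of these fits. *Asns* entered the ATF4 arm at least without cKO 1, so the median of that arm is not always over the same genes. Without the low-count filter 1367 genes and 2 members were called, in the likelihood ratio test 1096 and 2, and with the replicate block 1165 and 3, of which 1 was in the ATF4 arm. The members were *Xbp1* and *Ern1*, joined by *Shmt2* under the block. Replicate numbers name different libraries, and deviations of same-numbered libraries correlated by 0.0655. DESeq2, other scalings and a filter of 1 CPM gave 425 to 558 genes and no member. Why these values shift with the setting was not tested. *Calr* reversed without WT 2 (-0.043) and cKO 2 (-0.026), within a range of -0.0433 to 0.142 over single libraries left out, and *Ppp1r15a* without WT 2, within -0.370 to 0.0623. Of 242 values for 22 named genes, *Satb1* and the untested *Asns* not counted, 219 kept direction and side of the threshold, 14 gained and 6 lost a call, and 3 reversed. The medians moved little when *Atf3* and *Ppp1r15a* were left out of the ATF4 arm (-0.12) or the sensors joined the ER chaperone arm (0.05). At this depth 3 of the 12 ATF4 arm genes had too few counts to be tested.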
